A study of Homo sapiens and Mus musculus with 12 samples.

Results

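SPDEF sites of a human and a mouse pancreatic ductal adenocarcinoma (PDA) line were compared locus by locus. Human peaks are those of HPAF-II, a long-used PDA line of human origin engineered with HA-tagged human SPDEF. The mouse list comes from FC1245, a KPC PDA line grown in 2D, of strain C57/Bl6 and genotype KrasLSLG12D/+; Trp53LSLR172H/+; Pdx1-Cre, in which the Pdx1 promoter drives Cre; it carries HA-tagged mouse Spdef. In each line 3 CUT&RUN libraries were made with an antibody against the HA tag. CUT&RUN cuts and sequences the DNA around an antibody-bound protein. The comparison value is the GATA6 list, from 3 libraries of the same tagged HPAF-II cells. Every library used here therefore came from cells carrying a tagged SPDEF or Spdef, and each species is represented by a single cell line. The labels do not say whether the 3 libraries of a target came from separate cultures.

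The members are the 2774 human SPDEF peaks and the 5718 mouse Spdef peaks outside the mitochondrial genome, 8492 of the 19164 peaks in the series. The GATA6 list has 10669 such peaks. Median widths were 268 bp for SPDEF, 436.5 bp for mouse Spdef and 346 bp for GATA6. Each target has 1 list with positions only, so no value below has a replicate error, and the sequencing depth behind each list is unknown. Intervals cover counting error alone, treating peaks or loci as independent, although neighbouring peaks cluster. No p-value is given.

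SPDEF is an ETS-family transcription factor, a family that binds DNA around a GGA core. It is best known from mucus-secreting epithelia, where it takes part in the maturation of goblet cells, and the classical subtype of PDA shares epithelial and secretory features with such cells. GATA6 is a zinc-finger factor of the endoderm and a marker of classical PDA. Mouse and human chromosomes keep long stretches in which genes stand in the same order, so a human site can be set against the mouse stretch that holds the same genes.

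Peaks were matched through genes with a counterpart in both species. The position of each gene in hg19 and mm10 was entered from general knowledge and rounded; it was not read from an annotation of either build. Of 1020 genes, 1019 fell in the cytogenetic band given by the RefSeq table of GRCh38.p14 or in the next one, and HNF4G, which did not, was left out. Over 951 neighbouring pairs the entered hg19 spacing differed from the GRCh38 spacing by a median of 24.5 kb, and by 107 kb at the 90th percentile. The mouse positions could be checked only through gene order: 970 of the 1019 genes bounded a matched segment, in which neighbouring human genes are also neighbours in the mouse at a like distance. A locus below is the window of 250 kb on either side of the gene's approximate position. A peak in it is not assigned to the gene.

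Peak density was also taken by distance from the entered positions, over all loci together. Over 827 loci chosen so that their windows do not overlap, mouse Spdef peaks had a density of 6.72 per Mb (95% Poisson interval 5.96 to 7.56) within 25 kb of the mm10 position. The density was 3.03 per Mb (2.81 to 3.25) between 350 and 500 kb. Human SPDEF density went from 2.83 per Mb (2.34 to 3.39) within 25 kb of the hg19 position to 1.27 per Mb (1.13 to 1.42) between 350 and 500 kb. GATA6 density went from 8.78 per Mb (7.90 to 9.73) to 4.56 per Mb (4.30 to 4.83) over the same distances. In both genomes, then, peaks lay most densely close to the entered positions. This fall is over the loci as a set, so it checks neither single positions nor their match between species.

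Human loci with an SPDEF peak more often had a mouse Spdef peak at the matching mouse locus. Of the 827 loci, 303 (36.6%) held an SPDEF peak, 536 (64.8%) a mouse Spdef peak and 598 (72.3%) a GATA6 peak. Both SPDEF and mouse Spdef peaks were found at 245 loci (29.6%). A mouse peak was present at 245 of the 303 SPDEF loci (80.9%, 95% Wilson interval 76.1 to 84.9) and at 291 of the 524 loci without SPDEF (55.5%, 51.3 to 59.7). Read from the mouse side, an SPDEF peak stood at 45.7% (41.5 to 49.9) of the 536 loci with a mouse peak and at 19.9% (15.7 to 24.9) of the 291 loci without one.

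GATA6 gave a difference of like size at this window. A mouse Spdef peak was present at 72.2% (68.5 to 75.7) of GATA6 loci and at 45.4% (39.1 to 51.9) of loci without GATA6. Presence against absence thus differed by 25.3 percentage points for SPDEF and by 26.8 for GATA6. With every list cut to as many of its widest peaks as the SPDEF list holds, the differences were 22.9 points for SPDEF and 8.74 for GATA6. In windows of 25 kb they were 32.0 and 16.8 points, and in windows of 500 kb 20.3 and 27.8. Which of the lists separated loci more therefore changed with the window and with the length of the lists.

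The lists overlap, so the loci were split into exclusive classes. SPDEF and GATA6 peaks occurred together at 288 loci, and 81.2% (76.3 to 85.3) of these had a mouse Spdef peak. GATA6 without SPDEF occurred at 310 loci, of which 63.9% (58.4 to 69.0) had one. Neither occurred at 214 loci, of which 43.5% (37.0 to 50.2) had one. Only 15 loci held SPDEF without GATA6, and 11 of them had a mouse peak (73.3%, 48.0 to 89.1). The 3 larger classes had intervals that did not overlap. Gene content was higher in the class with SPDEF and GATA6, with a median of 5 coding genes of the RefSeq table within 250 kb of the gene. The median was 3 both for GATA6 without SPDEF and for neither.

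**Figure D1:**
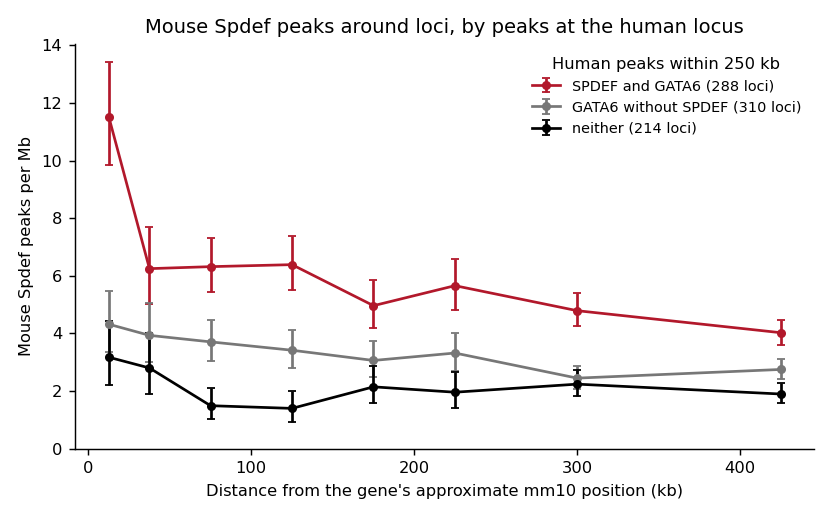
Mouse Spdef peaks per Mb (vertical axis) by distance from the gene's approximate mm10 position in kb (horizontal axis), for loci whose human counterpart holds SPDEF and GATA6 peaks, GATA6 peaks only, or neither; points stand at the middle of each distance range and bars are 95% Poisson intervals. Loci with SPDEF and GATA6 start at 11.5 peaks per Mb and lie above the other 2 classes at every distance.

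Loci with SPDEF and GATA6 stood farthest above the other classes, in peaks per Mb, close to the gene. Within 25 kb of the mm10 position the mouse list had 11.5 peaks per Mb (9.84 to 13.4) at loci with SPDEF and GATA6. It had 4.32 per Mb (3.35 to 5.49) at loci with GATA6 only and 3.18 per Mb (2.2 to 4.44) at loci with neither. Between 350 and 500 kb the densities were 4.03, 2.75 and 1.90 per Mb. Between GATA6 only and neither the densities lay farther apart from 50 to 100 kb, at 3.71 and 1.495 per Mb, than within 25 kb. The profile plot shows the fall with distance.

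Loci with more human SPDEF peaks had more mouse peaks. A mouse peak was present at 75% (67.3 to 81.4) of the 144 loci with 1 SPDEF peak, 76.7% (65.8 to 84.9) of the 73 with 2, and 94.2% (87.1 to 97.5) of the 86 with 3 or more. Mean numbers of mouse peaks were 1.45 with no SPDEF peak, then 2.42, 3.22 and 4.50. For GATA6 the shares were 69.7% with 1 peak, 60.2% with 2 and 77.7% with 3 or more. Mean numbers of mouse peaks were 1.12 with no GATA6 peak, then 2.11, 1.62 and 2.94. For both lists the intervals of the shares with 1 and with 2 peaks overlap.

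With GATA6 number held in ranges, the SPDEF difference was uneven. Among loci with 3 to 5 GATA6 peaks a mouse peak stood at 93.6% (87.4 to 96.9) of the 110 loci with SPDEF and at 57.3% (46.5 to 67.5) of the 82 without. Among loci with 6 or more, the shares were 80.2% (71.6 to 86.7) of 106 and 66.7% (48.8 to 80.8) of 30. Among loci with 1 to 2 GATA6 peaks no difference was detectable, with 63.9% (52.4 to 74.0) of 72 and 66.2% (59.3 to 72.4) of 198. Gene content also moved with the shares. At loci with at most the median of 4 coding genes nearby, a mouse peak was present at 71.0% (62.4 to 78.2) with SPDEF and 46.5% (41.4 to 51.7) without. Above the median the shares were 87.7% (82.1 to 91.7) and 75.2% (68.0 to 81.1). The SPDEF difference was thus 24.4 percentage points at loci with few genes and 12.6 at loci with more. For GATA6 it was 22.5 points (60.1% against 37.6%) and 24.3 points (86.8% against 62.5%). The part of gene content in the overall difference was not tested beyond this split.

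Peak size and GATA6 overlap differed little with the match. The 600 SPDEF peaks at loci with a mouse peak had a median width of 274 bp, and the 86 at loci without one 251.5 bp. A GATA6 peak overlapped 65.8% (61.9 to 69.5) of the former and 73.3% (63.1 to 81.5) of the latter, intervals that overlap. Mouse Spdef peaks had median widths of 438 bp at loci with SPDEF and 436 bp at loci without.

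Over longer stretches, 785 matched segments covered 1549 Mb of hg19 and 1387 Mb of mm10. They held 1710 SPDEF, 6741 GATA6 and 3611 mouse Spdef peaks, which is 61.6%, 63.2% and 63.2% of the lists. Across segments, the peaks per Mb of human SPDEF and mouse Spdef had a Spearman rho of 0.33. For GATA6 and mouse Spdef rho was 0.24. Over the 478 segments of at least 1 Mb the values were 0.35 and 0.26. SPDEF peaks that overlap no GATA6 peak had a rho of 0.30 with the mouse list, those on a GATA6 peak 0.24, and GATA6 peaks without SPDEF 0.19. Pearson r did not keep these orders over all segments. It was 0.42 for SPDEF and 0.45 for GATA6, and 0.17 for SPDEF off GATA6 against 0.43 on it. Over segments of at least 1 Mb r was 0.30 for SPDEF and 0.19 for GATA6. There it was 0.33 for SPDEF off GATA6 and 0.20 on it. These describe the lists: segments vary in length and gene content, neighbouring segments are not independent, and many hold few peaks.

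By rho, gene content followed the mouse list more closely than either human list did. By Pearson r this held over segments of at least 1 Mb (0.49 for coding genes) but not over all segments (0.35). Coding genes per Mb and mouse Spdef peaks per Mb had a rho of 0.39 over all segments and 0.49 over those of at least 1 Mb. Gene density had a rho of 0.24 with SPDEF and 0.06 with GATA6. With gene density held fixed by ranks, the SPDEF and mouse Spdef rho was 0.27, and with GATA6 density held fixed too it was 0.16. For GATA6 and mouse Spdef the corresponding values were 0.24 and, with SPDEF and gene density held fixed, 0.10. Over segments of at least 1 Mb the fully adjusted values were 0.10 for SPDEF and 0.13 for GATA6, so the order of the human lists was not kept there.

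**Figure D2:**
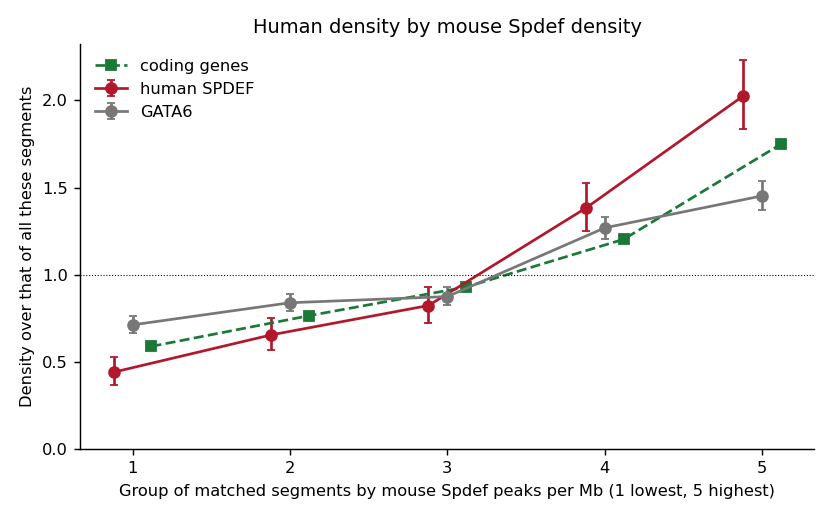
Density of human SPDEF peaks, GATA6 peaks and coding genes in 5 equal groups of the matched segments of at least 1 Mb, from lowest (1) to highest (5) mouse Spdef peaks per Mb (horizontal axis), relative to all these segments (vertical axis, 1 is the average); bars are 95% Poisson intervals of the peak counts. SPDEF goes from 0.44 to 2.03, GATA6 from 0.71 to 1.45 and coding genes from 0.59 to 1.749.

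Sorted by mouse density, the segments showed a wider span in SPDEF than in GATA6. In the lowest of 5 groups by mouse Spdef density the human SPDEF density was 0.440 times the average of these segments (0.366 to 0.524), and in the highest group 2.03 times (1.84 to 2.23). GATA6 went from 0.711 times (0.664 to 0.761) to 1.45 times (1.37 to 1.54). Coding genes per Mb went from 0.588 to 1.749 times. The plot of the 5 groups shows that SPDEF and GATA6 rise at each step.

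The matched segments of human 12, 14 and 20, the chromosomes with the highest SPDEF density, were compared with their mouse parts. SPDEF density on human 20 was 2.56 times that of all segments (2.18 to 2.98), and its mouse part, all on mouse 2, had 0.864 times the Spdef average (0.712 to 1.04). The part of human 14 on mouse 12 had 2.55 times (2.10 to 3.07) against 1.43 times (1.2 to 1.70) in the mouse. The part of human 14 on mouse 14 had 6.68 times (5.10 to 8.60) against 1.23 times (0.814 to 1.80). The part of human 12 on mouse 10 had 2.99 times against 1.24 times, and that on mouse 15 had 4.15 times against 2.21 times. The human excess of these chromosomes thus had no mouse counterpart of the same size. GATA6 density was raised there too, at 1.43 times on human 20 and 2.35 times in the part of human 12 on mouse 10. Copy number of the lines was not analysed here, and its part was not tested.

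The human 17 part of mouse 11 and the human 10 part of mouse 19 were among those high in the mouse only. The segments of human 17 on mouse 11 had 2.12 times the mouse Spdef average (1.85 to 2.43) and 0.656 times the human SPDEF average (0.455 to 0.917). The part of human 10 on mouse 19 had 1.86 times (1.55 to 2.21) in the mouse and 0.764 times (0.494 to 1.13) in the human. In that of human 22 on mouse 15 the values were 3.37 times (2.63 to 4.26) and 0.920 times (0.441 to 1.69). Coding genes per Mb were 1.84, 1.04 and 2.27 times the average in the parts of human 17, 10 and 22. The short part of human 11 on mouse 19 was high in both, at 5.03 times for SPDEF and 4.11 times for mouse Spdef. Over 63 chromosome pairs of at least 5 Mb, rho was 0.50 between SPDEF and mouse Spdef and 0.39 between GATA6 and mouse Spdef. Gene density had a rho of 0.57 with the mouse list and 0.50 with SPDEF over the same pairs.

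Among 124 collinear blocks of at least 2 Mb, 7 had more peaks than average in both SPDEF and mouse Spdef by their intervals, and 13 had fewer in both. In 2 blocks mouse Spdef was above and SPDEF below average, and in 0 blocks the reverse. Among the densest in both lists was the block from MS4A1 to RELA, in 11q12.2 to 11q13.1 and mouse 19qA, with 29 SPDEF peaks (5.03 times the average, 3.37 to 7.23) and 60 mouse peaks (4.11 times, 3.13 to 5.29). The block is gene-rich, with 4.26 times the average number of coding genes per Mb, and GATA6 was at 2.2 times its average in it.

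Blocks of human 12 and 14 were frequent among the others of highest combined rank. LRRK2 to ITGA5 (12q12 to 12q13.13, mouse 15) had 4.15 and 2.21 times the SPDEF and mouse averages. ANG to NFATC4 (14q11.2 to 14q12, mouse 14) had 9.43 times (6.68 to 12.9) for SPDEF and 1.62 times (0.992 to 2.51) for mouse Spdef. SERPINA1 to AKT1, on human 14 and mouse 12, had 2.27 and 1.5. CD63 to NAV3 (human 12, mouse 10) had 3.35 and 1.37. RUNX1T1 to GDF6 (human 8, mouse 4) had 2.18 (1.05 to 4.02) and 1.46 (0.816 to 2.41). NPY to AQP1 (human 7, mouse 6) had 1.5 (0.748 to 2.68) and 1.955. Tied with it at the last place, ERBB2 to WNT3 (human 17, mouse 11) had 1.17 (0.533 to 2.21) and 3.43. Coding genes per Mb were 4.13 times the average in ERBB2 to WNT3 and 3.81 times in ANG to NFATC4. Of the 11 blocks ranked this high 6 lie on human 12 or 14 and 0 on human 20, against 13 of all 124 blocks on these 3 chromosomes. SPDEF density, which is high there, is part of the rank.

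The 2 opposed blocks were MAP2K6 to FASN and EFNB2 to LAMP1. MAP2K6 to FASN, in 17q24.3 to 17q25.3 and mouse 11qE1 to 11qE2, held 5 SPDEF peaks (0.358 times the average, 0.116 to 0.836), 66 GATA6 peaks (1.2 times) and 82 mouse peaks (3.03 times, 2.41 to 3.76). EFNB2 to LAMP1, in 13q33.3 to 13q34 and mouse 8qA1.1, held 0 SPDEF peaks (upper limit 0.491 times), 6 GATA6 peaks and 23 mouse peaks (1.94 times, 1.23 to 2.91).

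The keratin and HOXC stretch of 12q13, from ATF1 to ITGA5, was dense in both species. It held 35 SPDEF peaks between chr12:51441710 and 54674705 of hg19, or 9.64 per Mb, which was 8.74 times the average of the matched segments (6.09 to 12.2). Its mouse counterpart held 34 Spdef peaks between chr15:101235174 and 103240683 of mm10, or 10.9 per Mb, at 4.17 times the average (2.89 to 5.83). The 43 GATA6 peaks stood at 2.72 times (1.97 to 3.67), and 18 of the 35 SPDEF peaks overlapped one. The stretch is gene-rich, with 95 coding genes in the human, 3.53 times the average per Mb. This block had been noted in earlier results of the same lists, so its density is a description.

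**Figure D3:**
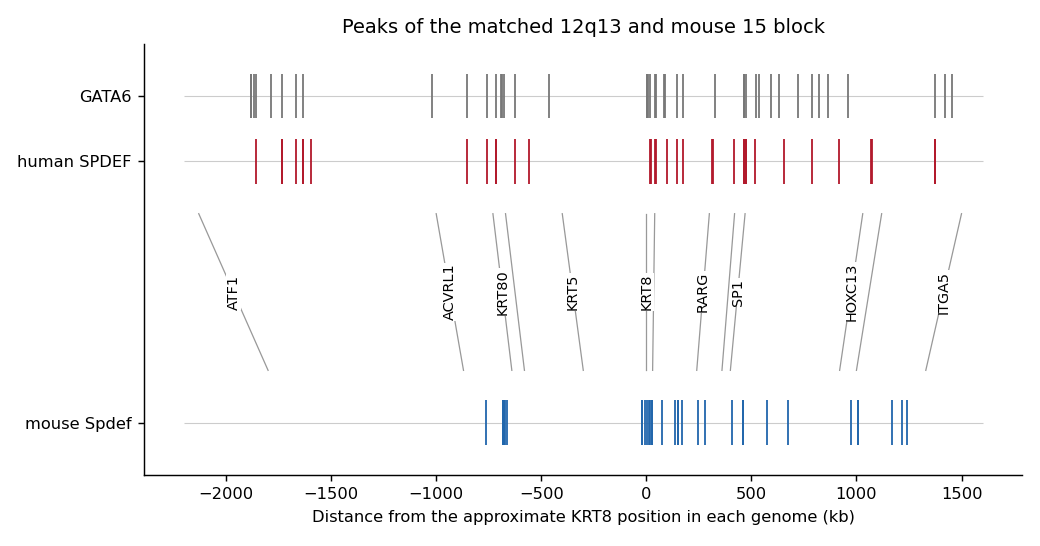
Each tick is a peak of the matched stretch from ATF1 to ITGA5, by distance in kb from the approximate KRT8 position in each genome; grey lines join the approximate positions of the same gene. Both SPDEF lists are dense from KRT8 to SP1, while the stretch from ATF1 to ACVRL1 holds 7 human SPDEF peaks and 0 mouse peaks.

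Inside this stretch the peaks did not run in parallel throughout. From ATF1 to ACVRL1 there were 7 SPDEF, 9 GATA6 and 0 mouse peaks. From ACVRL1 to KRT80 there were 2 SPDEF and 8 mouse peaks. The type II keratins from KRT80 to KRT5, which encode filament proteins of simple and stratified epithelia, had 4 SPDEF and 0 mouse peaks. From KRT5 through KRT8 and KRT18 to RARG, a retinoic acid receptor gene, there were 7 SPDEF, 10 GATA6 and 13 mouse peaks. From RARG to HOXC13 there were 11, 13 and 7, and from HOXC13 to ITGA5, an integrin gene, 4, 3 and 6. The KRT5 to KRT8 interval itself held 0 SPDEF, 0 GATA6 and 3 mouse peaks. The edges of these intervals are rounded positions. KRT80 has a human and a mouse peak within 25 kb, counted on opposite sides of it. The 3 mouse peaks before KRT8 also lie within 25 kb of it. The counts on either side of KRT80 and KRT8 therefore depend on the entered positions, and their contrasts may reflect where the edge was set.

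The widest mouse peak of the stretch and 2 of its 4 widest human SPDEF peaks lay at a like distance from KRT8. In the mouse it was chr15:102015216-102018146, 2931 bp wide, with its middle 16.7 kb from the approximate KRT8 position. In the human they were chr12:53319119-53320091 and chr12:53320253-53321269, with middles 19.6 and 20.8 kb from it. The widest GATA6 peak of the stretch, chr12:53318477-53321239, overlaps both. The positions are rounded, so this does not show that the peaks lie on the same element. The widest human SPDEF peak, chr12:53763889-53765421, and the second widest, chr12:53773239-53774377, stood 464.7 and 473.8 kb from KRT8. The second widest mouse peak of the stretch, chr15:102405295-102406686, stood 406.0 kb from it. SP1, a general activator of GC-rich promoters, has its approximate position within 25 kb of that mouse peak and of a human SPDEF peak.

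Peaks of both lists within 25 kb of the gene's position were found for 49 of the 1019 genes, and 42 of these (85.7%) also had a GATA6 peak that close. Another 47 genes had only a human peak that close, 39 of them (83.0%) with GATA6, and 165 only a mouse peak, 41 of them (24.8%) with GATA6. Of the 758 genes with neither, 119 (15.7%) had a GATA6 peak that close, and of all 1019 genes 23.7%. The GATA6 share was thus highest at genes with a human SPDEF peak, with or without the mouse one. Without a human SPDEF peak it was higher at genes with a mouse peak than at genes with neither. Among the 49 were MUC1 and MUC17, which encode membrane mucins, AGR2, a protein disulfide isomerase needed for mucin folding, and ELF3, an ETS factor of epithelia. KRT8, KRT18 and KRT19, the keratins of simple epithelia, HNF4A, an endodermal nuclear receptor, and CDX2, an intestinal homeobox factor, were also among them.

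Of the genes with peaks that close in both species, 6 are on the list of named loci and have a RefSeq promoter, and 3 of these, ELF3, KRT8 and MUC1, are shown by it, 250 bases before to 50 after the start, from RefSeq GRCh38.p14. The peaks are in hg19, so whether a peak covers these bases was not determined, and peak sequences themselves were not analysed here. Capitals mark CCGGAT or CCGGAA on either strand, core sequences that ETS factors bind; matches of the 2 can share their CCGG.
ELF3, chr1:202010337-202010636, plus strand: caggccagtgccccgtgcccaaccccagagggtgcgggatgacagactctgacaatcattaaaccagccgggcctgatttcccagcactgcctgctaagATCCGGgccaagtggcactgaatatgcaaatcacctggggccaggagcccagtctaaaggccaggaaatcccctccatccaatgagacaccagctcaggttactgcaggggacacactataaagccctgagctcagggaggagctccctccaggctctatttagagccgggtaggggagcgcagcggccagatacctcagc
KRT8, chr12:52926420-52926719, minus strand: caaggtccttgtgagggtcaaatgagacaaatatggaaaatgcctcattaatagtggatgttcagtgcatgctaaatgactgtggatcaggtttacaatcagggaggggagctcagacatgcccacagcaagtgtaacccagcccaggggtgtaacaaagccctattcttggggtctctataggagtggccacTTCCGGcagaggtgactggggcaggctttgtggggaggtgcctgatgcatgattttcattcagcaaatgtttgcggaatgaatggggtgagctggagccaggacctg
MUC1, chr1:155192866-155193165, minus strand: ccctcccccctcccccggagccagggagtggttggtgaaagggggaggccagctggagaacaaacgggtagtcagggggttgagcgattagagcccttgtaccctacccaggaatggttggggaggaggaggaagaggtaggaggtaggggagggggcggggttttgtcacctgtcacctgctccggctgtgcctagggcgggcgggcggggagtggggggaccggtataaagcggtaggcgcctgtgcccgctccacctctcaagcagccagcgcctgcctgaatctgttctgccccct

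The ELF3 promoter holds 1 match, to CCGGAT read on the other strand, and the KRT8 promoter 1 match, to CCGGAA read on the other strand. The MUC1 promoter holds 0, as do those of AGR2, MUC17 and HNF4A, so 2 of the 6 hold a match. CCGGAT occurs in 7.06% and CCGGAA in 17.6% of the 27305 RefSeq promoters of this length. The share with either motif, which is at least the larger of these, was not computed, so the 2 of 6 has no like background here. Promoters were found for 766 of the 1019 genes, under the 80% needed to compare gene classes, so a comparison of motif shares by class would be void and is not given.

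Over all 1019 loci, overlapping windows included, 39.5% had an SPDEF peak, 66.2% a mouse Spdef peak, 74.8% a GATA6 peak and 32.5% both an SPDEF and a mouse Spdef peak. The medians were 0 SPDEF, 1 mouse Spdef and 2 GATA6 peaks, with 4 coding genes nearby. Gene lists are read against these values. Their members share windows in places (TFF1 with TFF3, MUC2 with MUC5AC and MUC6, PDX1 with CDX2, KRT8 with KRT18, CDH1 with CDH3), so members are not independent.

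Mucus and secretory genes had the highest share of loci with both lists. Of 20 loci, 15 had SPDEF and mouse peaks, 4 mouse peaks only, 0 SPDEF peaks only and 1, CFTR, neither. The medians were 2 SPDEF, 3 mouse and 5 GATA6 peaks, with 8 coding genes nearby against 4 over all loci, and 19 of the 20 had a GATA6 peak. The list was chosen with earlier results of these data known.

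Among membrane mucins, MUC1 had 11 SPDEF and 11 mouse peaks beside 9 GATA6 peaks, the highest SPDEF number among the 34 named loci. Its widest peaks were chr1:154946406-154947186 in hg19 (781 bp) and chr3:89230420-89231994 in mm10 (1575 bp). The window holds 29 coding genes. MUC17 had 3 SPDEF and 10 mouse peaks, MUC4 5 and 3, and MUC13 2 and 3. MUC5AC, a gel-forming mucin of the stomach and airway, had 2 and 2, in a window shared with MUC2 and MUC6.

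AGR2 had 2 SPDEF and 3 mouse peaks beside 11 GATA6 peaks, its widest being chr7:16844259-16844560 in hg19 (302 bp) and chr12:36002258-36002943 in mm10 (686 bp). TSPAN8, a tetraspanin of epithelia, had 4 and 5, and its widest mouse peak, chr10:115828884-115830207, spanned 1324 bp. LCN2, a secreted lipocalin, had 3 and 3, and WFDC2, a secreted protease inhibitor family member, 2 and 10. The trefoil factor TFF3 and the gene of SPDEF itself had 0 SPDEF peaks and 3 and 4 mouse peaks. XBP1, a factor of the secretory stress response, had 0 and 2. At these 3 loci GATA6 had 5, 2 and 1 peaks.

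Among epithelial transcription factors, 6 of 14 loci had both lists, 4 only mouse peaks, 0 only SPDEF and 4 neither. ELF3 had 4 SPDEF and 4 mouse peaks, with widest peaks of chr1:201987242-201987930 in hg19 (689 bp) and chr1:135169891-135170756 in mm10 (866 bp). All 4 of its SPDEF peaks overlapped GATA6. EHF, another ETS factor of epithelia, had 3 and 1, and KLF6 1 and 6. ETS2, KLF4 and KLF5 had 0 in both lists, with 4, 1 and 5 GATA6 peaks. A count of 0 in these windows is no sign that the factor is absent there, since depth is unknown.

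Endoderm factors were close to all loci in these shares. Of 17 loci, 6 had both lists (35.3%, against 32.5% of all loci), 6 only mouse peaks, 1 only SPDEF peaks and 4 neither. HNF4A had 2 and 4, and PDX1, the pancreatic homeobox factor, 3 and 6 in a window shared with CDX2. SOX9, FOXA1 and GATA6 had 0 SPDEF peaks and 3, 2 and 1 mouse peaks. FOXA2, a pioneer factor of the endoderm, had 3 SPDEF, 16 GATA6 and 0 mouse peaks, and all 3 SPDEF peaks overlapped GATA6.

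Keratin and adhesion loci had both lists at 13 of 21 (61.9%, against 32.5% of all loci). Only mouse peaks were present at 6, only SPDEF at 1 and neither at 1. All 21 had GATA6 peaks. KRT8 had 7 SPDEF and 14 mouse peaks, KRT7 6 and 8, and KRT19 1 and 4. CTNND1, which encodes the catenin p120 of adherens junctions, had 3 and 3, and EPCAM 2 and 1. CDH1, the E-cadherin gene, had 0 SPDEF, 7 GATA6 and 9 mouse peaks. CLDN1, a tight junction claudin, had 2 SPDEF, 16 GATA6 and 0 mouse peaks.

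Growth signalling loci had both lists at 14 of 23 (60.9%, against 32.5% of all loci). ERBB3, a receptor of the EGF receptor family, had 8 SPDEF and 6 mouse peaks, with widest peaks of chr12:56509672-56510325 in hg19 (654 bp) and chr10:128704193-128705779 in mm10 (1587 bp). Its window holds 26 coding genes. MET, the hepatocyte growth factor receptor, had 0 SPDEF, 10 GATA6 and 2 mouse peaks.

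**Figure D4:**
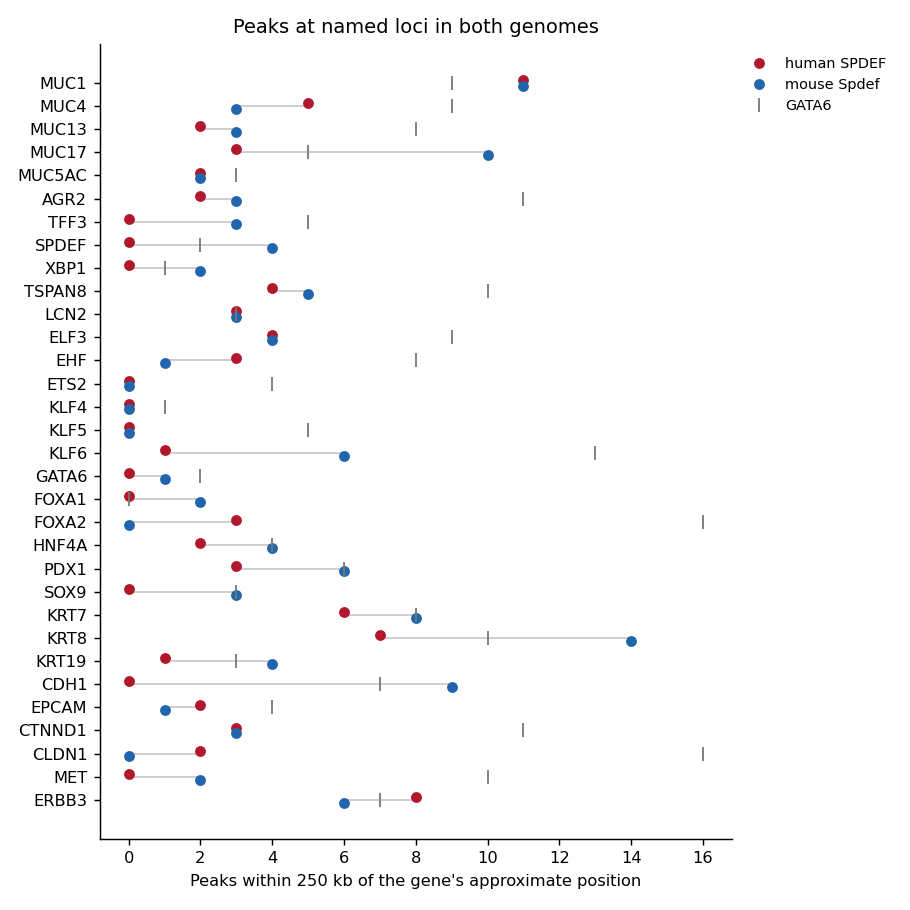
Number of peaks (horizontal axis) within 250 kb of the approximate position of 32 named genes (vertical axis): human SPDEF and mouse Spdef as dots joined by a line, GATA6 as a bar. MUC1 has 11 of each SPDEF list, KRT8 has 7 and 14, CDH1 has 0 and 9, and FOXA2 has 3 and 0.

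Of the 34 named loci, 19 had both lists, 9 only mouse peaks (among them TFF3, SPDEF, XBP1, GATA6, FOXA1, SOX9, CDH1 and MET), 2 only SPDEF peaks (FOXA2 and CLDN1) and 4 neither. GATA6 peaks were present at 33. The plot of the named loci gives the numbers at 32 of them.

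Neuronal loci had both lists less often than all loci by count, while basal and mesenchymal and blood and immune loci were closer to all loci. For basal and mesenchymal genes 5 of 17 had both, 2 only mouse and 3 only SPDEF peaks, and 7 neither. An SPDEF peak was present at 47.1% of them against 39.5% of all loci, and a mouse peak at 41.2% against 66.2%. SNAI1 had 4 and 5, and ZEB1, ZEB2 and TWIST1, transcription factors of the mesenchymal state, 0 in both lists. The loci of VIM and TWIST2 had 1 and 4 each. Of 19 neuronal loci 3 had both, 4 only mouse, 2 only SPDEF and 10 neither, with a GATA6 peak at 8. Of 18 blood and immune loci 7 had both, 6 only mouse, 1 only SPDEF and 4 neither, with a GATA6 peak at 16 and a median of 8.5 coding genes nearby. The share with both was 29.4% for basal and mesenchymal, 15.8% for neuronal and 38.9% for blood and immune loci, against 32.5% of all loci. It was 35.3% for endoderm factors and 42.9% for epithelial transcription factors. Growth signalling loci reached 60.9%, keratin and adhesion loci 61.9% and mucus and secretory loci 75%.

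**Figure D5:**
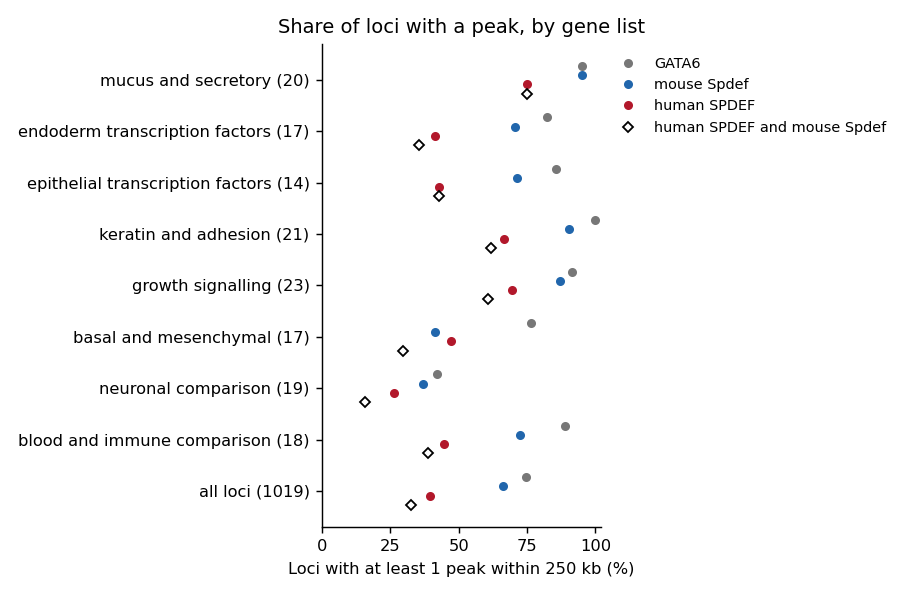
Share of loci in percent (horizontal axis) with at least 1 GATA6, mouse Spdef or human SPDEF peak within 250 kb (dots), or with both SPDEF lists (diamonds), by gene list with its number of loci in brackets. Both lists occur at 75% of mucus and secretory loci, 15.8% of neuronal loci and 32.5% of all loci.

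Ranked by peak number in both lists, the 10 highest of the 827 loci included MUC1, RARG, MALAT1, AHNAK, AKT1, TM4SF1, S100A9, MMP14 and DUSP6. RARG had 11 SPDEF and 16 mouse peaks in a window that overlaps that of KRT8, and the widest mouse peak is the same for both. MALAT1, a nuclear long RNA, had 8 and 11, and AHNAK 5 and 15. AKT1, a survival kinase, had 8 and 8, with a widest SPDEF peak of 2061 bp at chr14:105146716-105148776. TM4SF1 had 8 and 8 beside 25 GATA6 peaks. S100A9 had 4 SPDEF and 14 mouse peaks beside 1 GATA6 peak, and 0 of the 4 overlapped it. MMP14, a membrane metalloprotease, had 11 and 7. DUSP6, a phosphatase of ERK induced by that pathway, had 12 and 6, and 11 of the 12 SPDEF peaks overlapped GATA6. Except for TM4SF1 and DUSP6, with 6 and 5, these windows hold 12 or more coding genes.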

How the data were processed

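CUT&RUN peaks of HA-tagged SPDEF (3 HPAF-II libraries), HA-tagged Spdef (3 FC1245 libraries) and GATA6 (3 HPAF-II libraries) were used as the 3 deposited peak lists, each giving a chromosome, start and end with no score. The tools listed, per the submitters' processing notes, are MACS2 2.2.7.1, deepTools, SAMtools 1.14 and Bowtie2 2.4.4, with hg19 and mm10 as builds; how libraries were combined, the control and the threshold are not given in the sources used here. Lists were assigned to groups by their names. Libraries of IgG and of H3K4me3 were not used here.

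Mitochondrial peaks were left out (1 per list). A peak was counted by its midpoint. Positions of 1020 genes were entered from general knowledge, rounded, and checked by band (circlize 0.4.16) against RefSeq GRCh38.p14. Segments join neighbouring genes that are neighbours in both genomes, up to 10 Mb apart with a length ratio of at most 2.5, a ratio not applied where both gaps are under 500 kb. Loci were windows of 250 kb either side, thinned so that none overlap. Density is peaks per Mb, and its fold is over that of all matched segments. Overlap of SPDEF with GATA6 peaks means at least 1 bp. Intervals are 95% Wilson for shares and exact 95% Poisson for counts. Python 3.11.15, numpy 2.4.6, pandas 2.3.3, scipy 1.17.1 and matplotlib 3.10.9 were used.

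Named loci were a list of 34, the 10 loci with the smallest sum of ranks of both peak numbers and the blocks of at least 2 Mb ranking in the first 10 by the same sum over densities, ties kept. Some of these loci and blocks are not reported here. Members, lists and tests were chosen with earlier results of these data known. The counting and correlation steps were tested on simulated data with planted counts and recovered them. Alternatives changed the window, the segment limits, the peak widths used, the chromosomes kept and the GATA6 overlap.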

Additional observations from a re-analysis of the deposited data

How the results depend on the processing

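No paired analysis was possible because there is a single list per target, which holds no values per replicate. Leaving out a replicate was not possible for the same reason. The yardstick for a shift was the interval of the reported value or, for the number of loci with both lists, 1.5 times. By that yardstick nothing moved among the results each of these alternatives applied to: peaks of at least 100 bp (9 results), leaving out human chromosomes 12, 14 and 20 (7), overlapping windows (5), each of the 2 segment limits (4), the chromosome mean (2) and segments of at least 1 Mb (2). The same held for 2 alternatives chosen after seeing the data: loci that bound a matched segment only (5 results) and leaving out the mouse peaks around EZH2 (8).

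Window size set the shares. With 100 kb either side a mouse Spdef peak was present at 67.6% of SPDEF loci and 36.6% of others, and at 53.1% of GATA6 loci and 33.5% of others; 138 loci had both SPDEF lists. With 500 kb the shares were 89.9%, 69.7%, 83.5% and 55.7%. Chosen after seeing the data, 50 kb gave 54.5%, 27.2%, 41.2% and 25.6% with 73 loci, and 25 kb gave 50%, 18%, 33.8% and 17% with 46 loci. SPDEF loci had a higher share than GATA6 loci at each of these windows, but many loci hold both and the GATA6 list is longer. With 500 kb, presence against absence differed more for GATA6 (27.8 points) than for SPDEF (20.3).

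With the wider 50% of each list rho was 0.25 for SPDEF and 0.15 for GATA6, the shares were 66.0% and 41.1% for loci with and without SPDEF and 52.4% for GATA6 loci, and 128 loci had both. With lists cut to equal length, rho for GATA6 was 0.12 and the shares were 61.1%, 38.2% and 51.8%. With only SPDEF peaks off GATA6, the shares were 86.4% and 60.1%, 127 loci had both, and the SPDEF fold of the 12q13 block was 12.7. The rho values kept their sign and the folds stayed above 1 under every alternative run on them. The order of the differences did not hold: presence against absence separated loci by 25.3 points for SPDEF and 26.8 for GATA6 as reported, by 24.9 and 12.2 with the wider 50%, and by 22.9 and 8.74 with lists of equal length.

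The main limits are the rounded gene positions, of which those in the mouse were checked by gene order alone, the unknown depth, and 1 cell line per species.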

Other observations

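Loci high in the mouse alone were described after their values were seen. Of the 827 loci, 214 had a mouse Spdef peak within 250 kb and no human SPDEF peak within 500 kb. Of these, 145 (67.8%) had a GATA6 peak within 250 kb, against 72.3% of all 827. The 827 include the 303 SPDEF loci, of which 288 held GATA6. Among the 524 loci without SPDEF within 250 kb, 310 held GATA6, a lower share than the 67.8%. The reverse, an SPDEF peak within 250 kb and no mouse peak within 500 kb, was found at 22 loci. The mouse list is longer, so the counts are not comparable in size. Mouse-only loci with the most peaks after EZH2 were PDGFB, a growth factor gene, with 9 mouse peaks, MAP2K6, the cyclin gene CCNA2 and FOXE1 with 8 each, and BIRC5, FOXO1, DNMT1, BCL2 and FES with 7 each. Human-only loci with the most peaks were PTPRJ, NEUROD1 and FOXA2 with 3 SPDEF peaks each. Beside them stood 2, 9 and 16 GATA6 peaks.

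The locus with the most mouse peaks was EZH2, with 33. Of the 33, 32 lay in 129 kb of mouse chromosome 6, chr6:47652431-47781326 of mm10, with a median gap of 1886 bp between peaks. The human locus had 0 SPDEF peaks within 500 kb and 1 GATA6 peak within 250 kb. What lies under these peaks was not analysed here, and leaving them out moved no reported share by more than its interval.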
